A study of Homo sapiens with 12 samples.

Results

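Glycolysis and the transcriptional answer to low oxygen are described here through 36 genes, picked by name from the 38611 genes in each deposited table: 12 for glucose entry and upper glycolysis, 8 for lower glycolysis and lactate, 5 for hypoxia-inducible factor subunits and the prolyl hydroxylases that mark them, and 11 hypoxia-inducible factor targets outside glycolysis. RNA was sequenced in PC3 and DU145, human prostate cancer cell lines established from metastases. The 4 groups, with 3 libraries each, were docetaxel-resistant PC3, parental PC3, docetaxel-resistant DU145 and parental DU145. Docetaxel is a taxane that stabilises microtubules. Each resistant subline had been selected in stepwise rising drug, which began at 0.5 in PC3 and 10 in DU145 and went on until the IC50 was 15 in PC3 and 1800 in DU145, in the labels' unit of nm/ml, whose meaning is not stated. The labels name 1 resistant subline for each line, and whether the drug was present at harvest is not stated. The labels give no oxygen tension and no glucose content of the medium. Whether the 3 libraries of a group stem from separate cultures is not stated, and the p-values therefore reflect the spread among these libraries alone, which may be technical.

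In glycolysis, glucose enters through GLUT carriers, is phosphorylated by hexokinase, committed by phosphofructokinase, split by aldolase and oxidised to pyruvate, which lactate dehydrogenase can reduce to lactate for export. Hypoxia-inducible factors are dimers of an oxygen-sensitive alpha subunit, HIF-1alpha from HIF1A or HIF-2alpha from EPAS1, with ARNT. In oxygen, the prolyl hydroxylases EGLN1 and EGLN3 mark the alpha subunit for destruction through VHL, so that the factors are set mainly at the level of protein, which was not measured here, and many of their targets are glycolytic genes.

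Library totals lay between 62513103 and 72530254 counts. CTNNA1, alpha-catenin, a gene known to be lost in PC3, reached 2.11 to 3.43 CPM (counts scaled to a common library size with TMM) in PC3 libraries and 377 to 537 CPM in DU145 libraries, so each library matched its line. All 4 epithelial markers were detected, with summed levels of 222 to 227 CPM in resistant and 459 to 479 CPM in parental PC3, and of 1380 to 1420 CPM in resistant and 714 to 732 CPM in parental DU145. The 5 leukocyte markers summed to at most 1.18 CPM, with CD3E, listed with a retained-intron transcript alone, at 0 in resistant PC3, parental PC3 and parental DU145, and PTPRC at 0 in resistant and parental DU145. The 6 markers of fibroblasts and smooth muscle summed to 10.9 to 17.7 CPM in resistant and 108 to 113 CPM in parental PC3, and to 5.4 to 9.98 CPM in resistant and 22.9 to 38.2 CPM in parental DU145. The 5 endothelial markers summed to 52.3 to 75.2 CPM in resistant and 176 to 230.0 CPM in parental PC3, where VWF was at 0, and to at most 1 CPM in DU145, where TEK was at 0 in both groups and CDH5 in the parental one. The mitochondrial genome gave 3.46% to 3.55% of counts in resistant and 5.68% to 6.04% in parental PC3, and 7.04% to 7.14% in resistant and 3.98% to 4.30% in parental DU145. The part of these markers and shares in the results was not tested. Resistant PC3 had 1 library, the first, that stood apart: a chi-square statistic of its counts against each of the other libraries of its group came to 33.8 and 33.9 per gene, and to 16.7 between those others.

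Most of these genes were lower in the resistant sublines, and those that rose included both genes for the alpha subunits. In PC3, 21 of the 35 members tested were called lower and 8 higher in resistant cells, at an adjusted p under 0.05 by edgeR's quasi-likelihood test. Among all 24128 genes tested in PC3, 44% were called, 21.6% lower and 22.4% higher. In DU145, 22 members were called lower and 6 higher, against a background of 39.6% of genes called, 20.7% lower and 18.9% higher. The median log2 change of the 34 members other than SLC2A3, whose coding message was not measured, was -0.52 in PC3 and -0.29 in DU145, while the median over all genes was 0 in both. With a threshold of 1 log2 unit, 10 members were lower and 1 higher in PC3 (all genes 9.89% and 7.16%), and 4 were lower and 1 higher in DU145 (all genes 5.8% and 7.19%). The lowest and highest of the 3 libraries of each group did not overlap for 32 of 35 members in PC3 (54.4% of all genes) and for 31 of 35 in DU145 (51.2% of all genes). These shares over all genes were not matched to the members for level, and the part of level in the counts was not tested. RNA from bulk cultures cannot tell fewer cells expressing a gene from less RNA per cell.

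Of the 8 members called higher in PC3, GAPDH, GPI, PFKM and PKM were all lost under upper-quartile scaling, without the low-count filter, with limma on log2(FPKM + 1) and without the first library of parental PC3, which each left 4. Without the first library of resistant PC3, 7 were higher and 21 lower. On the TPM scale FPKM are rescaled to the same total in each library, and limma was used on 15332 genes. With it 3 members were higher and 26 lower in DU145. The median change of those genes in DU145 was -0.149, against -0.0326 with limma on log2(FPKM + 1) for the same genes. Of called genes in DU145, 33.5% were higher on the TPM scale and 44.8% with limma on log2(FPKM + 1). In the edgeR fit with TMM scaling, over 24128 genes, 47.7% were higher.

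**Figure D1:**
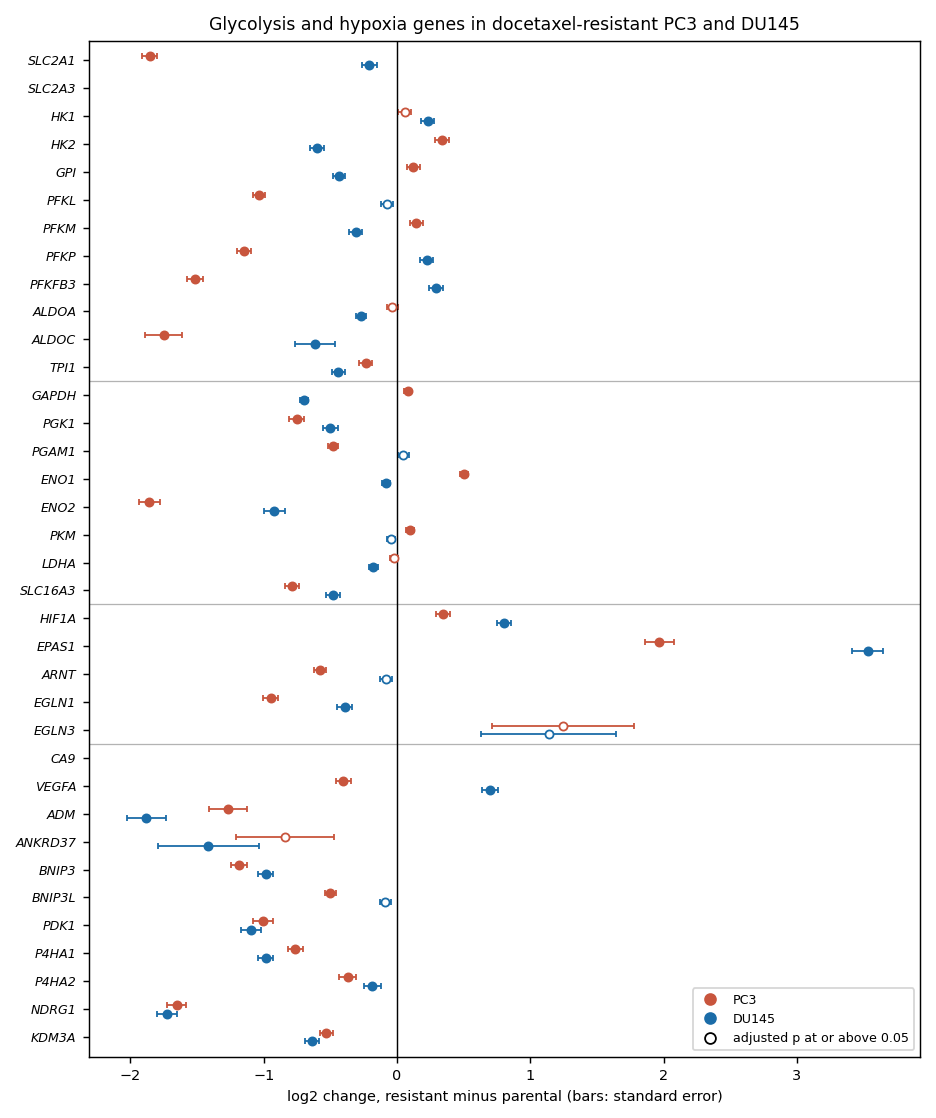
Log2 change of each member, resistant minus parental, with its standard error from edgeR, for PC3 (red, upper point of each pair) and DU145 (blue, lower point). Open points had an adjusted p at or above 0.05. Grey lines part glucose entry and upper glycolysis, lower glycolysis and lactate, factor subunits with hydroxylases, and targets outside glycolysis. EPAS1 lies far to the right in both lines, and NDRG1, ADM, PDK1 and BNIP3 lie at or below about -1 in both. SLC2A3, whose coding message was not measured, and CA9, which was not tested, carry no point.

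Called lower in both lines were 14 members, which is 66.7% of those lower in PC3 and 63.6% of those lower in DU145. They were SLC2A1, ALDOC, TPI1, PGK1, ENO2, SLC16A3, EGLN1, ADM, BNIP3, PDK1, P4HA1, P4HA2, NDRG1 and KDM3A. Among all genes, 1666 were called lower in both, or 6.9% of those tested, 32% of the genes lower in PC3 and 33.3% of those lower in DU145. HIF1A and EPAS1 were the only members called higher in both, as were 6.54% of all genes tested. PFKP, PFKFB3 and VEGFA were lower in PC3 and higher in DU145, and HK2, GPI, PFKM, GAPDH and ENO1 were higher in PC3 and lower in DU145. These 8 of 35 members compare with 12.1% of all genes called in opposite directions. The PC3 calls of GPI, PFKM and GAPDH and the DU145 calls of ENO1, PFKP and PFKFB3 were each lost under at least 1 alternative. A test of the difference itself, the change in PC3 minus the change in DU145, called 26 of the 35 members, 11 higher and 15 lower (all genes 42.1%, 22.1% higher and 20% lower). By at least 1 log2 unit, none was higher and 6 lower (all genes 9.35% and 11.7%). Without the first library of parental PC3, with upper-quartile scaling or with limma on log2(FPKM + 1), 7 were higher. On the TPM scale 12 were higher and 12 lower, and 65.8% of all called differences were higher, against 52.5% with TMM scaling.

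The transcripts for both oxygen-sensitive alpha subunits rose in both resistant sublines. Gene coordinates here and below are those of the deposited tables, on GRCh38. EPAS1 (ENSG00000116016, chr2:46293667-46386696), which encodes HIF-2alpha, had 38.5, 37.2 and 34.1 CPM in resistant PC3, against 8.15, 11.0 and 8.97 CPM in parental PC3. In DU145 it had 123, 115 and 112 CPM in resistant cells, against 10.4, 8.73 and 11.2 CPM in parental cells. All resistant libraries lay above all parental ones in each line, and the parental lines overlapped each other. EPAS1 was 3.91-fold higher in resistant PC3 (log2 1.97 ± 0.11, SE, adjusted p = 5.40e-10) and 11.6-fold higher in resistant DU145 (log2 3.53 ± 0.11, SE, adjusted p = 1.46e-12). The rise was smaller in PC3 than in DU145, with a difference of -1.56 ± 0.15 log2 units (SE, adjusted p = 3.57e-07). HIF1A (ENSG00000100644, chr14:61695513-61748258), which encodes HIF-1alpha, had 814, 746 and 748 CPM in resistant PC3, against 611, 602 and 599.8 CPM in parental PC3. In resistant DU145 it had 640.4, 643 and 570.2 CPM, against 375, 356 and 333 CPM in parental DU145. The groups did not overlap in either line, and the log2 changes were 0.35 ± 0.05 in PC3 and 0.80 ± 0.05 in DU145 (SE, adjusted p = 4.17e-05 and 5.92e-09). Antisense genes and a gene on its own strand, AL137129, overlap HIF1A. The strand setting of the counting is not given, so reads of those genes cannot be told apart from its own. Other members also overlap a gene on their own strand, among them EGLN1, PFKP, ALDOC, PGK1 and SLC16A3, with the same limit.

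Per transcript length HIF1A stayed the main alpha subunit message. EPAS1 made up 3.25% ± 0.138 of the summed FPKM (a level scaled for transcript length and depth) of the pair in resistant PC3 and 1.08% ± 0.171 in parental PC3, and 11.8% ± 0.504 in resistant DU145 and 1.98% ± 0.315 in parental DU145 (SD, n = 3 each). The exact two-sided permutation p was 0.1 in each line, the smallest that 3 libraries against 3 allow.

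ARNT, the partner of both alpha subunits, was lower in resistant PC3, at 42.4, 43.7 and 42.9 CPM, against 62.6, 64.8 and 64.9 CPM in parental PC3 (log2 change -0.58 ± 0.04, SE, adjusted p = 2.21e-08). In DU145 it had 96.9, 99.5 and 96.6 CPM in resistant and 104, 102 and 104 CPM in parental libraries, a log2 change of -0.08 ± 0.04 that did not pass (SE, adjusted p = 0.148). EGLN1 (ENSG00000135766, chr1:231363751-231422287), the prolyl hydroxylase PHD2, which is the chief oxygen sensor of the pathway, fell in both. It had 49.2, 49.5 and 54.4 CPM in resistant PC3, against 96.2, 92.7 and 106 CPM in parental PC3, and 149.5, 149 and 144 CPM in resistant DU145, against 203, 190.4 and 188 CPM in parental DU145. The groups were apart in both lines, with log2 changes of -0.95 ± 0.06 in PC3 and -0.39 ± 0.06 in DU145 (SE, adjusted p = 1.49e-09 and 3.17e-05). EGLN3, the hydroxylase PHD3, was near the lower end of detection in PC3. It had 0.838, 1.895 and 1.07 CPM in resistant PC3, against 0.118, 0.873 and 0.608 CPM in parental PC3, which overlapped, and 5.67, 9.52 and 6.68 CPM in resistant DU145, against 4.58, 2.22 and 3.14 CPM in parental DU145, which did not. Its log2 changes were 1.25 ± 0.54 in PC3 and 1.14 ± 0.50 in DU145 and passed in neither (SE, adjusted p = 0.0755 and 0.0914). This result was the same under 15 of 18 alternatives in each line. Under the others, DESeq2's Wald test among them, EGLN3 was called higher.

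**Figure D2:**
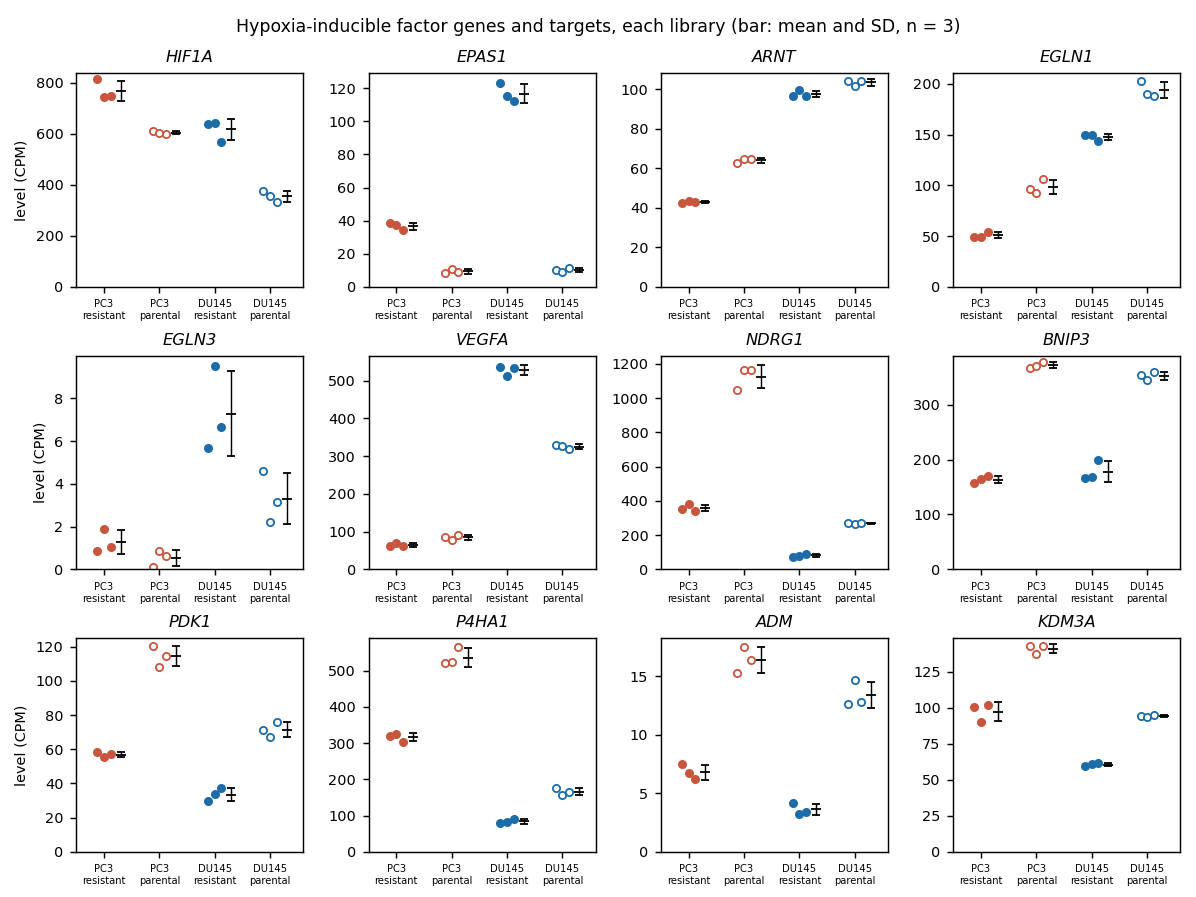
Level in CPM of 12 members of the hypoxia response in each library, in resistant PC3, parental PC3, resistant DU145 and parental DU145 (filled circles resistant, open circles parental, black bar mean and SD of 3). HIF1A and EPAS1 are higher in both resistant sublines, EGLN1, NDRG1, BNIP3, PDK1, P4HA1, ADM and KDM3A are lower in both, and VEGFA is lower in resistant PC3 and higher in resistant DU145.

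The hypoxia-inducible factor targets outside glycolysis were mostly lower. Of the 10 tested, 9 were called lower and none higher in PC3, and 8 were called lower and 1 higher in DU145, with median log2 changes of -0.80 in PC3 and -0.99 in DU145. Of all genes, 21.6% were lower and 22.4% higher in PC3, and 20.7% were lower and 18.9% higher in DU145. In PC3 the remaining one, ANKRD37, had an unadjusted p of 0.0382 by the same test. NDRG1, a stress-responsive gene known as a suppressor of metastasis, had 352, 379.7 and 342 CPM in resistant PC3, against 1049, 1164 and 1161 CPM in parental PC3. It had 74.5, 76.8 and 92.2 CPM in resistant DU145, against 271, 263 and 271 CPM in parental DU145. The groups were far apart in both lines, 3.14-fold lower in resistant PC3 (log2 -1.65 ± 0.07, SE, adjusted p = 2.00e-10) and 3.31-fold lower in resistant DU145 (log2 -1.73 ± 0.07, SE, adjusted p = 1.87e-10). The difference between these changes was 0.07 ± 0.10 log2 units (SE, adjusted p = 0.620).

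ADM (ENSG00000148926, chr11:10305073-10307397), which encodes the vasodilator peptide adrenomedullin, was low throughout. It had 7.47, 6.73 and 6.22 CPM in resistant PC3, against 15.3, 17.5 and 16.4 CPM in parental PC3, and 4.19, 3.27 and 3.44 CPM in resistant DU145, against 12.6, 14.7 and 12.8 CPM in parental DU145. No resistant library reached a parental one, and the log2 changes were -1.27 ± 0.14 in PC3 and -1.88 ± 0.15 in DU145 (SE, adjusted p = 2.06e-06 and 4.39e-08). PDK1 (ENSG00000152256, chr2:172555373-172599137) encodes a kinase that shuts off pyruvate dehydrogenase and so keeps pyruvate out of the mitochondrial cycle. It had 58.2, 55.7 and 57.0 CPM in resistant PC3, against 120.3, 108 and 115 CPM in parental PC3, and 29.6, 33.7 and 37.2 CPM in resistant DU145, against 71.0, 67.5 and 76.0 CPM in parental DU145. PDK1 was lower by 2.01-fold in PC3 and 2.13-fold in DU145, with no overlap in either line (log2 -1.01 ± 0.07 and -1.09 ± 0.08, SE, adjusted p = 1.53e-08 and 9.37e-09).

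BNIP3 (ENSG00000176171, chr10:131966455-131982013), a receptor that hands mitochondria over to autophagy, had 157, 164 and 169.7 CPM in resistant PC3, against 367, 369.5 and 378 CPM in parental PC3. In resistant DU145 it had 167, 167 and 199 CPM, against 354, 345 and 359 CPM in parental DU145. The parental lines were close to each other and so were the resistant ones, and the fall was 2.27-fold in PC3 and 1.98-fold in DU145 (log2 -1.18 ± 0.06 and -0.99 ± 0.06, SE, adjusted p = 1.70e-10 and 1.75e-09). The reference annotation names 39 pseudogenes of BNIP3, of which 20 are in the files, so part of its reads may have been split among them. BNIP3L, its close relative, had 144, 137 and 137 CPM in resistant PC3, against 194, 192 and 205 CPM in parental PC3 (log2 change -0.50 ± 0.04, SE, adjusted p = 2.76e-08). In DU145 it had 174, 173 and 173 CPM in resistant and 185, 185 and 181 CPM in parental libraries, and a log2 change of -0.09 ± 0.04 did not pass (SE, adjusted p = 0.0897).

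P4HA1 and P4HA2 encode alpha subunits of the enzyme that hydroxylates prolines of collagen. P4HA1 had 320.4, 324 and 304 CPM in resistant PC3, against 519.8, 523 and 565 CPM in parental PC3, and 80.2, 81.0 and 90.3 CPM in resistant DU145, against 176, 156 and 166 CPM in parental DU145. The groups did not overlap, with log2 changes of -0.76 ± 0.06 in PC3 and -0.99 ± 0.06 in DU145 (SE, adjusted p = 1.28e-08 and 1.10e-09). P4HA2 had log2 changes of -0.37 ± 0.06 in PC3 and -0.19 ± 0.06 in DU145 (SE, adjusted p = 1.28e-04 and 0.0264), and its DU145 call was lost under 4 of 20 alternatives. KDM3A, a histone demethylase, had a log2 change of -0.53 ± 0.05 in PC3 and -0.64 ± 0.05 in DU145 (SE, adjusted p = 1.93e-07 and 3.60e-08).

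VEGFA (ENSG00000112715, chr6:43770184-43786487), the main angiogenic growth factor, moved in opposite directions. It had 61.6, 70.3 and 61.3 CPM in resistant PC3, against 84.8, 78.8 and 91.7 CPM in parental PC3, and 538, 512 and 535 CPM in resistant DU145, against 330.4, 327 and 319 CPM in parental DU145. The groups were apart in both lines, lower in resistant PC3 (log2 -0.40 ± 0.06, SE, adjusted p = 2.94e-05) and higher in resistant DU145 (log2 0.70 ± 0.06, SE, adjusted p = 7.65e-08). The difference was -1.10 ± 0.08 log2 units (SE, adjusted p = 2.14e-08). ANKRD37, a small ankyrin repeat protein, had 2.35, 2.20 and 2.24 CPM in resistant PC3, against 3.84, 5.29 and 3.04 CPM in parental PC3, and 1.03, 0.401 and 1.06 CPM in resistant DU145, against 2.43, 2.67 and 1.54 CPM in parental DU145. The groups did not overlap, but it was called lower in DU145 (log2 -1.42 ± 0.38, SE, adjusted p = 0.00723) and did not pass in PC3 (log2 -0.84 ± 0.37, SE, adjusted p = 0.0801). The PC3 result was the same under 16 of 20 alternatives, and under the others ANKRD37 was called lower. The difference between the lines did not pass (0.57 ± 0.53 log2 units, SE, adjusted p = 0.433). CA9, a carbonic anhydrase much used as a hypoxia marker, had 0, 0 and 0 CPM in resistant PC3, against 0.163, 0 and 0.125 CPM in parental PC3, and 0.166, 0 and 0 CPM in resistant DU145, against 0, 0 and 0 CPM in parental DU145. A count of 3, the limit that 0 allows, amounts to 0.0414 to 0.048 CPM in a library before TMM scaling, for counting error only. CA9 was filtered out before testing, and a difference was not detectable at this depth.

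Hypoxia-inducible factors bind short DNA words with the core ACGTG or GCGTG, and the promoters of BNIP3, ALDOC and ENO2, which fell in both lines, of EPAS1, which rose, and of LDHA, which changed little, are shown so that the words can be seen beside the changes. The 250 bases before the RefSeq gene start on build GRCh38.p14 read as follows, 5′ to 3′, with each match on either strand in capitals.
BNIP3: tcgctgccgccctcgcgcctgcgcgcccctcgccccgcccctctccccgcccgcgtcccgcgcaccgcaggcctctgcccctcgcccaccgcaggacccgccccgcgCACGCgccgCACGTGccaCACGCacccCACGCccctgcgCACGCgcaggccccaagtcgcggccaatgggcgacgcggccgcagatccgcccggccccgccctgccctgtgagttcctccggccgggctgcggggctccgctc
ALDOC: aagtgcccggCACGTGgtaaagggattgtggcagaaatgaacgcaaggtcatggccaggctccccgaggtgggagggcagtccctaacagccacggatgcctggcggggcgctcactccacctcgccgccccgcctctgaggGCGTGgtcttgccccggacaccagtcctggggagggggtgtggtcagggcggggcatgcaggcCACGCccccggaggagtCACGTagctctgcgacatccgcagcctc
ENO2: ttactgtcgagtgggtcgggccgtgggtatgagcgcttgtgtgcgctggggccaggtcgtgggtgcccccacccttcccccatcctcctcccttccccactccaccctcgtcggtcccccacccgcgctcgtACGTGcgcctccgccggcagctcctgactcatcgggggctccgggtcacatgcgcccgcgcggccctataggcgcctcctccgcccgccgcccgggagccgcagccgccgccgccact
LDHA: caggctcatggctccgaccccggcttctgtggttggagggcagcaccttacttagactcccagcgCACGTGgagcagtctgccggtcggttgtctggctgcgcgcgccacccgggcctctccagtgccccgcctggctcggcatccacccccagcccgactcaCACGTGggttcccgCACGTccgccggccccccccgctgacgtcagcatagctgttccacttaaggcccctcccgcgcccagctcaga
EPAS1: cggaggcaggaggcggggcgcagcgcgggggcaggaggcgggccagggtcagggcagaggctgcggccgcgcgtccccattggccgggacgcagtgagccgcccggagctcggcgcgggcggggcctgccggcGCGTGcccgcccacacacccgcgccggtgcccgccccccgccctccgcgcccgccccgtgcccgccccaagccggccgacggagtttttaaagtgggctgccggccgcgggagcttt

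The BNIP3 stretch lies at chr10:131981924-131982173 on the minus strand, that of ALDOC at chr17:28576896-28577145 on the minus strand, that of ENO2 at chr12:6914330-6914579 on the plus strand, that of LDHA at chr11:18394313-18394562 on the plus strand and that of EPAS1 at chr2:46297157-46297406 on the plus strand. In the whole 300-base window, which adds 50 bases after the start, BNIP3 and LDHA had 6 matches each, ALDOC 5, and ENO2 and EPAS1 1 each. SLC2A1, ADM and PDK1 also fell in both lines, by at least 1 log2 unit in PC3, and their promoters are not shown. They had 1, 1 and 0 matches, and the match of SLC2A1 lay after the start. The word CACGTG holds a match on both strands and was counted as a pair. BNIP3 fell in both lines, whereas LDHA had log2 changes of -0.02 in PC3 and -0.18 in DU145. A promoter of this length was found for 32 of the 36 members, all but SLC2A3, VEGFA, BNIP3L and NDRG1. At least 1 match was present in 22 of the 32, or 68.8%, against 48.4% of all 27305 promoters. Among members lower in both lines the share was 69.2% (9 of 13), and among the other members 68.4% (13 of 19). PDK1, TPI1, SLC16A3 and P4HA2 were lower in both with no match in this window. A match is a description of letters and not a site of binding.

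Glucose entry and the upper steps of glycolysis were lower for 6 of 12 members in PC3, with 3 higher and 3 that did not pass, and lower for 7 of 12 in DU145, with 3 higher and 2 that did not pass. Among all genes 44% were called in PC3 and 39.6% in DU145. The median log2 change of the 11 members other than SLC2A3 was -0.24 in PC3 and -0.27 in DU145. SLC2A1 (ENSG00000117394, chr1:42925353-42958868), the GLUT1 carrier that brings glucose into most cancer cells, had 43.2, 48.2 and 45.2 CPM in resistant PC3, against 153, 176 and 165 CPM in parental PC3. In resistant DU145 it had 192, 188 and 207 CPM, against 229.5, 224 and 225 CPM in parental DU145. The groups were apart in both lines, but the fall was 3.62-fold in PC3 (log2 -1.86 ± 0.06, SE, adjusted p = 1.03e-12) and 1.16-fold in DU145 (log2 -0.21 ± 0.06, SE, adjusted p = 0.00624). The difference of -1.65 ± 0.08 log2 units passed (SE, adjusted p = 1.44e-10). SLC2A3, the GLUT3 carrier, was represented in the tables by a retained-intron transcript alone and reached at most 0.577 CPM in any library, so its coding message was not measured. SLC2A3 stands among the members that did not pass, and it is left out of the medians.

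**Figure D3:**
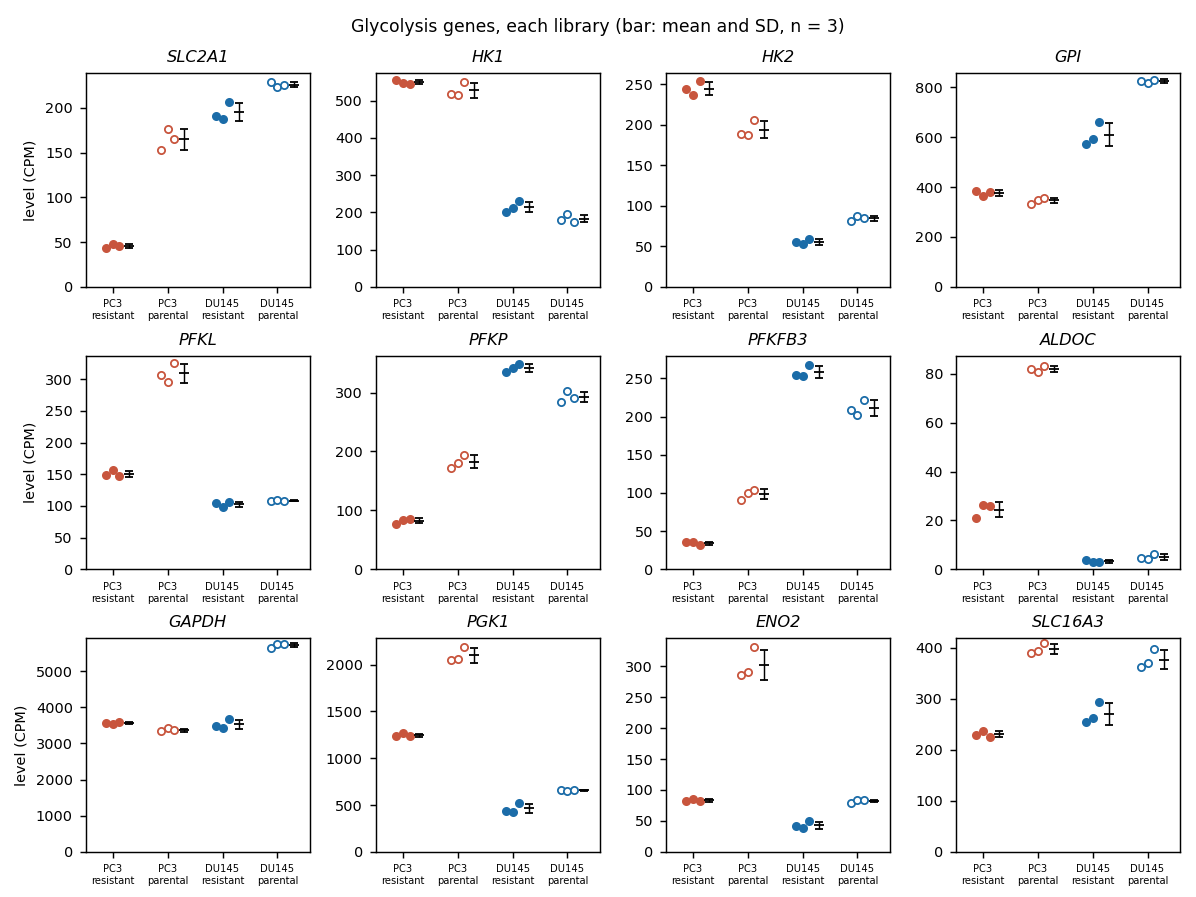
Level in CPM of 12 glycolysis members in each library, in resistant PC3, parental PC3, resistant DU145 and parental DU145 (filled circles resistant, open circles parental, black bar mean and SD of 3). SLC2A1, PFKL, PFKP, PFKFB3, ALDOC and ENO2 are 2.05-fold to 3.63-fold lower in resistant than in parental PC3, while HK2, GPI and GAPDH are lower in resistant than in parental DU145 and slightly higher in resistant than in parental PC3.

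Hexokinase traps glucose in the cell. HK2 (ENSG00000159399, chr2:74834127-74893359), the isoform known for its rise in tumours, had 244, 236 and 253 CPM in resistant PC3, against 188, 188 and 206 CPM in parental PC3, and 55.4, 52.2 and 59.0 CPM in resistant DU145, against 81.1, 87.0 and 84.9 CPM in parental DU145. It was higher in resistant PC3 (log2 0.34 ± 0.05, SE, adjusted p = 6.20e-05) and lower in resistant DU145 (log2 -0.60 ± 0.05, SE, adjusted p = 1.91e-07), with no overlap in either line. HK1, the housekeeping isoform, had 555, 549 and 545 CPM in resistant PC3, against 517, 517 and 549.8 CPM in parental PC3, and 202, 212 and 229.7 CPM in resistant DU145, against 179, 195 and 175 CPM in parental DU145. The groups overlapped in PC3 and not in DU145. HK1 had a log2 change of 0.06 ± 0.05 in PC3, which did not pass (SE, adjusted p = 0.393), and of 0.23 ± 0.05 in DU145, which did (SE, adjusted p = 0.00152), except on the TPM scale. GPI, the isomerase of the next step, had 386, 365 and 379 CPM in resistant PC3, against 334, 349 and 356 CPM in parental PC3, and 574, 593 and 662 CPM in resistant DU145, against 825, 816 and 831 CPM in parental DU145. Its fall in DU145 (log2 -0.43 ± 0.05, SE, adjusted p = 1.51e-06) exceeded the spread, while its PC3 call (log2 0.12 ± 0.05, SE, adjusted p = 0.0446) was lost under 9 of 20 alternatives.

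Phosphofructokinase sets the pace of glycolysis, and its genes diverged between the lines. PFKP (ENSG00000067057, chr10:3066333-3137715), the platelet type, had 77.4, 83.5 and 86.2 CPM in resistant PC3, against 173, 181 and 194 CPM in parental PC3, and 335, 342 and 349 CPM in resistant DU145, against 285, 302 and 291 CPM in parental DU145. PFKL (ENSG00000141959, chr21:44300051-44327376), the liver type, had 149, 156 and 147 CPM in resistant PC3, against 306, 296 and 326 CPM in parental PC3, and 105, 98.6 and 106 CPM in resistant DU145, against 108, 109.8 and 107 CPM in parental DU145. Both fell in PC3 with wide gaps between the groups, PFKP by 2.22-fold and PFKL by 2.05-fold (log2 -1.15 ± 0.05 and -1.04 ± 0.05, SE, adjusted p = 4.86e-11 and 4.43e-11). In DU145 PFKP rose by 0.22 ± 0.05 log2 units (SE, adjusted p = 0.00172), a call lost on the TPM scale, and PFKL did not pass (log2 -0.08 ± 0.05, SE, adjusted p = 0.215). PFKM, the muscle type, had 143, 144 and 143 CPM in resistant PC3, against 128, 129.9 and 132 CPM in parental PC3, and 103, 97.5 and 110.2 CPM in resistant DU145, against 131, 132 and 122 CPM in parental DU145. The groups did not overlap in either line. PFKM had log2 changes of 0.14 ± 0.05 in PC3 and -0.31 ± 0.05 in DU145 (SE, adjusted p = 0.0233 and 7.50e-05), and its PC3 call was lost under 5 of 20 alternatives. PFKFB3 (ENSG00000170525, chr10:6144934-6254644) makes a sugar bisphosphate that is a strong activator of phosphofructokinase. It had 35.3, 35.4 and 32.2 CPM in resistant PC3, against 90.9, 100.4 and 103 CPM in parental PC3, and 254, 253 and 268 CPM in resistant DU145, against 209, 202 and 222 CPM in parental DU145. PFKFB3 was 2.86-fold lower in resistant PC3 (log2 -1.52 ± 0.06, SE, adjusted p = 1.01e-11) and 1.22-fold higher in resistant DU145 (log2 0.29 ± 0.06, SE, adjusted p = 4.64e-04), the second of which did not pass on the TPM scale. Among members called for the difference between lines its value was the largest, -1.81 ± 0.08 log2 units (SE, adjusted p = 5.44e-11).

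Aldolase splits the phosphorylated sugar. ALDOC (ENSG00000109107, chr17:28573115-28576948), the brain type, had 20.9, 26.5 and 25.7 CPM in resistant PC3, against 82.1, 80.8 and 83.4 CPM in parental PC3, and 3.98, 3.13 and 2.80 CPM in resistant DU145, against 4.48, 4.43 and 6.29 CPM in parental DU145. It was 3.37-fold lower in resistant PC3 (log2 -1.75 ± 0.14, SE, adjusted p = 3.65e-08) and 1.53-fold lower in resistant DU145 (log2 -0.62 ± 0.15, SE, adjusted p = 0.00400), with no overlap. ALDOA, the main type, had 895, 879.8 and 913 CPM in resistant PC3, against 911, 910.0 and 932 CPM in parental PC3, and 1333, 1366 and 1469 CPM in resistant DU145, against 1604, 1688 and 1738 CPM in parental DU145. It had log2 changes of -0.03 ± 0.04 in PC3, where the groups overlapped, and -0.27 ± 0.04 in DU145 (SE, adjusted p = 0.530 and 2.82e-05). TPI1, the isomerase that makes both products usable, fell by 1.18-fold in PC3 and 1.36-fold in DU145 (log2 -0.24 ± 0.05 and -0.44 ± 0.05, SE, adjusted p = 6.60e-04 and 1.64e-06).

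In lower glycolysis and lactate handling, 4 of 8 members were lower, 3 higher and 1 did not pass in PC3, and 6 were lower, none higher and 2 did not pass in DU145, where the unadjusted p of these 2, PGAM1 and PKM, was 0.251 and 0.183. Their median log2 change was -0.25 in PC3 and -0.33 in DU145, and of all genes 21.6% were lower in PC3 and 20.7% in DU145. GAPDH (ENSG00000111640, chr12:6534512-6538371), the dehydrogenase often taken as a reference transcript, had 3551, 3534 and 3592 CPM in resistant PC3, against 3329, 3412 and 3360.0 CPM in parental PC3. In resistant DU145 it had 3489, 3419 and 3672 CPM, against 5647, 5758 and 5754 CPM in parental DU145. GAPDH was 1.62-fold lower in resistant DU145 (log2 -0.70 ± 0.03, SE, adjusted p = 1.35e-11), while its PC3 change (log2 0.08 ± 0.03, SE, adjusted p = 0.0241) lost its call under 7 of 20 alternatives. The annotation names 62 pseudogenes of GAPDH, of which 31 are in the files, so reads may be shared with them. PGK1 (ENSG00000102144, chrX:77910739-78129295), a kinase that makes ATP, had 1235, 1267 and 1235 CPM in resistant PC3, against 2046, 2059 and 2191 CPM in parental PC3, and 440.1, 429 and 523 CPM in resistant DU145, against 657, 648 and 665 CPM in parental DU145. Its groups were apart in both lines, 1.69-fold lower in resistant PC3 and 1.42-fold lower in resistant DU145 (log2 -0.75 ± 0.06 and -0.50 ± 0.06, SE, adjusted p = 4.85e-08 and 4.96e-06).

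PGAM1, the mutase, fell in PC3 (log2 -0.48 ± 0.04, SE, adjusted p = 5.96e-08) and did not pass in DU145 (log2 0.05 ± 0.04, SE, adjusted p = 0.398), where the groups overlapped. Enolase is encoded by ENO1, the common form, and ENO2 (ENSG00000111674, chr12:6913745-6923696), the neuronal form. ENO2 had 81.5, 86.2 and 81.9 CPM in resistant PC3, against 286, 290.1 and 331 CPM in parental PC3, and 41.4, 38.9 and 49.8 CPM in resistant DU145, against 79.5, 83.0 and 83.8 CPM in parental DU145. It was 3.63-fold lower in resistant PC3 (log2 -1.86 ± 0.08, SE, adjusted p = 6.53e-11) and 1.89-fold lower in resistant DU145 (log2 -0.92 ± 0.08, SE, adjusted p = 1.74e-07), and resistant PC3 stood at the level of parental DU145. LRRC23 overlaps ENO2 on the same strand, and shared reads cannot be told apart. ENO1 had 3334, 3240.0 and 3318 CPM in resistant PC3, against 2320.0, 2336 and 2318 CPM in parental PC3, and 2769, 2802 and 2991 CPM in resistant DU145, against 3036, 3075 and 2959 CPM in parental DU145. It rose in PC3 by 1.42-fold (log2 0.50 ± 0.03, SE, adjusted p = 1.30e-09). In DU145 the groups overlapped, and a log2 change of -0.08 ± 0.03 (SE, adjusted p = 0.0375) lost its call under 15 of 20 alternatives.

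PKM, the pyruvate kinase of the last step, had log2 changes of 0.09 ± 0.03 in PC3, a call lost under 4 of 20 alternatives, and -0.04 ± 0.03 in DU145 (SE, adjusted p = 0.0181 and 0.312). LDHA, the dehydrogenase that turns pyruvate into lactate, had 2552, 2483 and 2559 CPM in resistant PC3, against 2561, 2562 and 2594 CPM in parental PC3, and 1458, 1462 and 1590.0 CPM in resistant DU145, against 1722, 1691 and 1688 CPM in parental DU145. It did not pass in PC3 (log2 -0.02 ± 0.03, SE, adjusted p = 0.624) and was 1.13-fold lower in resistant DU145 (log2 -0.18 ± 0.03, SE, adjusted p = 3.28e-04). SLC16A3 (ENSG00000141526, chr17:82228397-82261129), the MCT4 carrier that exports lactate, had 228, 237 and 225 CPM in resistant PC3, against 390.0, 393 and 409 CPM in parental PC3, and 254, 261 and 294 CPM in resistant DU145, against 362, 371 and 398 CPM in parental DU145. The groups were apart in both lines, with falls of 1.73-fold in PC3 and 1.40-fold in DU145 (log2 -0.79 ± 0.05 and -0.48 ± 0.05, SE, adjusted p = 4.94e-09 and 1.79e-06).

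Summed over the 16 glycolytic enzymes among the members, the level was 16712 to 16883 CPM in resistant PC3, against 16914 to 17407 CPM in parental PC3. In DU145 it was 15431 to 16776 CPM in resistant cells, against 19372 to 19604 CPM in parental cells. The groups did not overlap in either line, with a narrow gap in PC3 and a wide one in DU145. In this sum of counts abundant and long transcripts weigh most, and GAPDH had the highest CPM in every group. In DU145 the mean sum was 15904 CPM in resistant and 19472 CPM in parental cells. The mean of GAPDH alone was 3527 CPM in resistant and 5720 CPM in parental DU145. In PC3 the sum joins opposite changes, such as the rise of ENO1 and the fall of PGK1. The sum was not repeated under another scaling. Per length, GAPDH was the most abundant member, at 1438 ± 15.9 FPKM in resistant and 1398 ± 15.8 FPKM in parental PC3, and 1486 ± 56.5 FPKM in resistant and 2452 ± 53.3 FPKM in parental DU145 (SD, n = 3 each). ENO1 came next in every group, at 612 ± 6.85 FPKM in resistant and 443 ± 2.79 FPKM in parental PC3, and 553 ± 24.9 FPKM in resistant and 595 ± 8.13 FPKM in parental DU145.

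Within enzyme families the make-up of the messages differed between resistant and parental cells, measured as each gene's share of the family's summed FPKM. HK2 made up 32.1% ± 0.872 of the hexokinase pair in resistant PC3 and 28.1% ± 0.328 in parental PC3, but 21.6% ± 0.964 in resistant DU145 and 32.9% ± 0.949 in parental DU145 (SD, n = 3 each). PFKM made up 41.8% ± 0.584 of phosphofructokinase in resistant PC3, against 23.5% ± 0.685 in parental PC3, and PFKL 35.7% ± 0.827 in resistant and 45.5% ± 0.827 in parental PC3. Which of them led in resistant PC3 depended on the unit, since by counts PFKM made up 38.1% ± 0.551 and PFKL 40% ± 0.878 there. PFKP led in DU145, with 63.2% ± 1.05 in resistant and 55.9% ± 0.916 in parental cells. The minor isoforms of aldolase and enolase made up less in resistant PC3, where ALDOC made up 3.84% ± 0.469 of aldolase in resistant and 11.6% ± 0.0803 in parental cells, and ENO2 2.98% ± 0.135 of enolase in resistant and 13.7% ± 0.987 in parental cells. In DU145 ENO2 made up 1.81% ± 0.164 in resistant and 3.2% ± 0.123 in parental cells, and ALDOC 0.35% ± 0.0793 in resistant and 0.44% ± 0.0774 in parental cells. For each of these genes the exact two-sided permutation p was 0.1, the smallest possible with 3 libraries against 3, except for ALDOC in DU145, where it was 0.3 and the groups overlapped.

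**Figure D4:**
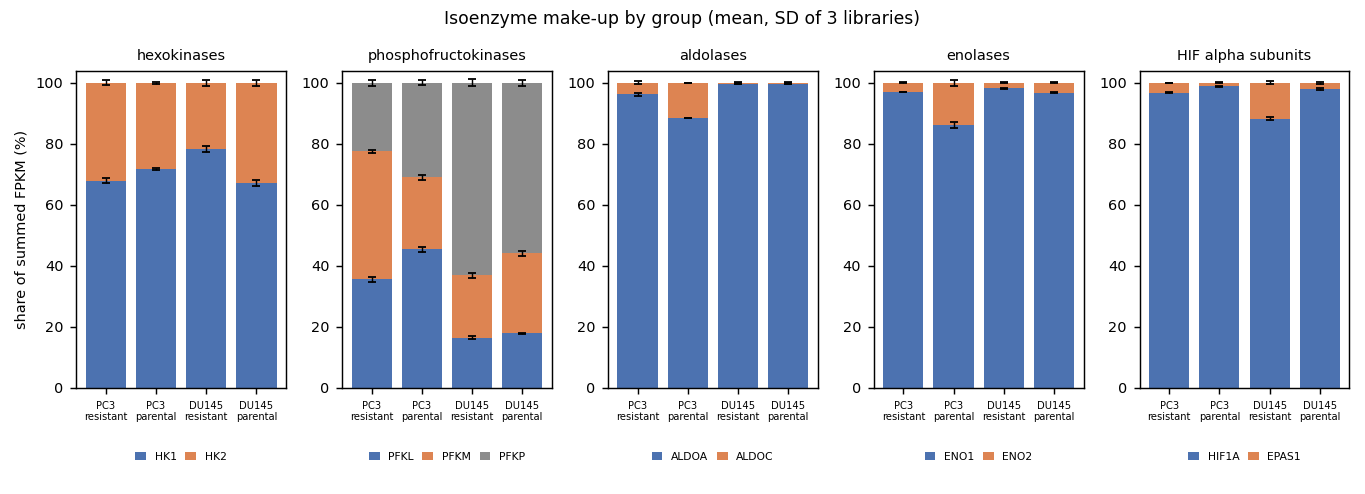
Share of each gene in its family's summed FPKM, in percent, for hexokinases, phosphofructokinases, aldolases, enolases and the hypoxia-inducible factor alpha subunits, in resistant PC3, parental PC3, resistant DU145 and parental DU145 (stacked bars, mean of 3 libraries, error bars SD). The orange PFKM block is taller in resistant PC3 (41.8%) than in parental PC3 (23.5%), the orange ALDOC and ENO2 blocks are shorter there, and the orange EPAS1 block is tallest in resistant DU145 (11.8%).

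Genes of the same pathways outside the 36 are given by lists, whose counts stand beside 44% of all genes called in PC3 (21.6% lower, 22.4% higher) and 39.6% in DU145 (20.7% lower, 18.9% higher). Of 38 other hypoxia-inducible factor targets tested, 24 were lower and 8 higher in PC3 (median log2 change -0.70) and 21 were lower and 13 higher in DU145 (median -0.30). The lowest in PC3 were ANGPTL4, an inhibitor of lipoprotein lipase (log2 -4.10 ± 0.16), LOX, which crosslinks collagen (log2 -3.19 ± 0.12), and the transcription factor BHLHE41 (log2 -2.70 ± 0.12), each with its SE. ANGPTL4 had 3.33 ± 0.533 CPM in resistant and 57.0 ± 4.06 CPM in parental PC3 (SD, n = 3 each). Among the lowest in DU145 were TMEM45A (log2 -3.81 ± 0.11, SE) and PLOD1, a lysyl hydroxylase of collagen (log2 -1.55 ± 0.04, SE). STC1, the hormone stanniocalcin, ran the other way. It had 179 ± 15.6 CPM in resistant and 21.5 ± 2.16 CPM in parental PC3, and 55.7 ± 4.75 CPM in resistant and 1.10 ± 0.938 CPM in parental DU145 (SD, n = 3 each, log2 3.06 ± 0.29 and 5.67 ± 0.38, SE, adjusted p = 1.95e-05 and 1.80e-06). PPP1R3C, a glycogen-targeting phosphatase subunit, was higher in resistant PC3 (log2 4.03 ± 0.58, SE), at 0.694 ± 0.187 CPM in resistant and 0.0416 ± 0.0721 CPM in parental PC3. TXNIP, an inhibitor of glucose uptake, and BHLHE41 rose in DU145 (log2 2.12 ± 0.18 and 1.54 ± 0.29, SE).

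Among 13 other regulators of the hypoxia-inducible factors tested, 5 were lower and 3 higher in PC3, and 5 lower and 5 higher in DU145. ARNT2, a relative of ARNT that can pair with alpha subunits, had 13.1 ± 1.29 CPM in resistant and 0.133 ± 0.0893 CPM in parental DU145 (SD, n = 3 each, log2 6.59 ± 0.73, SE, adjusted p = 6.71e-06). CUL2, the scaffold of the VHL ligase, was higher in both, with log2 changes of 0.37 ± 0.05 in PC3 and 1.02 ± 0.05 in DU145 (SE). HIF1AN, the asparagine hydroxylase that blocks coactivator binding to the alpha subunits, was lower in PC3 (log2 -0.74 ± 0.05, SE), as was EGLN2, the hydroxylase PHD1 (log2 -0.40 ± 0.06, SE), which was higher in DU145 (log2 0.37 ± 0.06, SE). SIAH2, a ligase that targets prolyl hydroxylases, was lower in DU145 (log2 -0.81 ± 0.07, SE).

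Of 18 other enzymes of glycolysis and gluconeogenesis tested, 5 were lower and 5 higher in PC3, and 4 lower and 3 higher in DU145. The 7 of 18 called in DU145, 38.9%, were close to the 39.6% of all genes, and the 10 of 18 called in PC3, 55.6%, stood beside 44% of all genes. PFKFB4, which like PFKFB3 sets that activator, had 32.0 ± 1.55 CPM in resistant and 161 ± 14.8 CPM in parental PC3, and 21.0 ± 3.92 CPM in resistant and 74.6 ± 2.17 CPM in parental DU145 (SD, n = 3 each). It fell in both lines, with log2 changes of -2.33 ± 0.11 in PC3 and -1.83 ± 0.11 in DU145 (SE, adjusted p = 3.34e-10 and 5.48e-09). FBP1, a rate-limiting enzyme of gluconeogenesis, was lower in PC3 (log2 -3.22 ± 0.33, SE) and higher in DU145 (log2 1.76 ± 0.31, SE). PCK2, the mitochondrial phosphoenolpyruvate carboxykinase, fell in PC3 (log2 -1.49 ± 0.11, SE), where the hexokinase-like HKDC1 and the lactate dehydrogenase subunit LDHB rose (log2 2.66 ± 0.67 and 0.63 ± 0.04, SE).

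Of 10 other glucose and monocarboxylate carriers tested, 5 were lower and 3 higher in PC3, and 3 were lower and 3 higher in DU145. SLC16A7, the monocarboxylate carrier MCT2, rose in both, to 39.8 ± 2.86 CPM in resistant PC3, against 6.93 ± 0.777 CPM in parental PC3, and to 18.6 ± 1.07 CPM in resistant DU145, against 1.54 ± 0.313 CPM in parental DU145 (SD, n = 3 each, log2 2.52 ± 0.13 and 3.59 ± 0.15, SE, adjusted p = 3.69e-10 and 2.41e-11). SLC16A1, the carrier MCT1, rose in PC3 (log2 0.73 ± 0.04, SE) together with its chaperone BSG (log2 0.74 ± 0.04, SE), and both fell in DU145 (log2 -0.79 ± 0.04 and -0.13 ± 0.04, SE). SLC2A10, a facilitative glucose carrier, was lower in PC3 (log2 -1.28 ± 0.12, SE) and higher in DU145 (log2 3.59 ± 0.14, SE). SLC2A12 fell in PC3 (log2 -3.25 ± 0.38, SE), to 1.10 ± 0.305 CPM in resistant cells, against 10.4 ± 0.413 CPM in parental cells.

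In the entry of pyruvate into mitochondria, 5 of 13 genes were lower and 5 higher in PC3, and 5 lower and 3 higher in DU145, so that 76.9% were called in PC3 and 61.5% in DU145, beside 44% and 39.6% of all genes. DLAT, a core subunit of pyruvate dehydrogenase, rose in PC3 to 168 ± 4.25 CPM in resistant cells, against 61.7 ± 4.10 CPM in parental cells (SD, n = 3 each, log2 1.44 ± 0.05, SE, adjusted p = 4.83e-12), along with PDHA1, another subunit, and PDPR, a regulator of its phosphatase (log2 0.86 ± 0.05 and 0.94 ± 0.04, SE). Its subunit genes PDHB and PDHX fell there (log2 -0.62 ± 0.06 and -0.43 ± 0.08, SE). The inhibitory kinases PDK4, PDK3 and PDK2 fell in PC3 (log2 -2.52 ± 0.29, -0.95 ± 0.08 and -0.69 ± 0.09, SE). In DU145 the pyruvate carrier subunit MPC2 and PDK2 fell (log2 -1.05 ± 0.08 and -1.01 ± 0.09, SE), as did PDHB (log2 -0.42 ± 0.06, SE), while the activating phosphatase PDP1, the inhibitory kinase PDK3 and DLAT rose (log2 0.75 ± 0.06, 0.27 ± 0.08 and 0.27 ± 0.05, SE). Of the 7 genes of the pentose phosphate pathway, 3 were lower and 3 higher in PC3, and 1 was lower and 3 higher in DU145. RPIA, an isomerase of that pathway, rose in PC3 (log2 1.03 ± 0.10, SE), and TKT, the transketolase, fell in both (log2 -0.14 ± 0.04 and -0.36 ± 0.04, SE).

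The parental lines already differed. In parental PC3 over parental DU145, 15 of 35 members were called higher and 12 lower, against a background of 60.3% of genes called, 30.9% higher and 29.5% lower. By at least 1 log2 unit, 8 were higher and 4 lower (all genes 19.2% and 16.7%), and the libraries of the lines did not overlap for 30 members (67.7% of all genes). ALDOC was 16.2-fold higher in parental PC3 (log2 4.02 ± 0.15, SE, adjusted p = 2.58e-12), followed by NDRG1 (4.19-fold), ENO2 (3.68-fold), P4HA1 (3.23-fold) and PGK1 (3.20-fold). HK1, PFKL and HK2 were 2.88-fold, 2.85-fold and 2.30-fold higher there. EGLN3 was 6.21-fold lower in parental PC3 (log2 -2.64 ± 0.55, SE, adjusted p = 6.76e-04), VEGFA 3.82-fold, GPI 2.38-fold and PFKFB3 2.15-fold. EPAS1 did not pass between parental lines (log2 -0.11 ± 0.11, SE, adjusted p = 0.403), nor did BNIP3 (log2 0.08 ± 0.06, SE, adjusted p = 0.275).

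Between the resistant sublines, PC3 over DU145, 17 members were called higher and 14 lower, against 59.8% of all genes called, 30.6% higher and 29.1% lower. By at least 1 log2 unit, 7 were higher and 8 lower (all genes 17.5% and 17%), and 31 did not overlap (66.5% of all genes). VEGFA was 8.20-fold, PFKFB3 7.53-fold, SLC2A1 4.30-fold and PFKP 4.15-fold lower in resistant PC3 (log2 -3.04 ± 0.06, -2.91 ± 0.06, -2.10 ± 0.06 and -2.05 ± 0.05, SE). ALDOC, NDRG1 and HK2 were 7.38-fold, 4.41-fold and 4.40-fold higher (log2 2.88 ± 0.15, 2.14 ± 0.07 and 2.14 ± 0.06, SE). GAPDH, which differed 1.70-fold between the parental lines, did not pass between the resistant ones (log2 0.01 ± 0.03, SE, adjusted p = 0.706), and the 2 groups overlapped. This comparison shares its resistant libraries with the comparisons within each line.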

How the data were processed

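RNA was sequenced from PC3 and DU145 cells, parental or docetaxel-resistant, in 3 libraries of each of 4 groups. Per the submitters' processing notes, reads were trimmed with cutadapt 1.9, aligned with HISAT2 2.0.4 and assembled with StringTie 1.3.4d, and DESeq2 and edgeR were used by the authors. Which counter made the tables, and with which strand setting, is not given in the sources used here. The deposited tables hold the authors' read counts per gene and FPKM values, and FPKM was a fixed multiple of the count per gene, within 0.1%, for all 12562 genes compared. The notes name hg18, but the coordinates in the tables are those of GRCh38: of 37385 genes also in the reference table, 37377 overlapped their place there. Promoters are from RefSeq on GRCh38.p14.

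The deposited counts of 24128 genes that passed edgeR's filterByExpr were scaled by TMM and fitted together in 1 quasi-likelihood model with a mean for each of 4 groups (edgeR 4.0.16, R 4.3.3, 8 residual degrees of freedom), and p-values were adjusted by Benjamini-Hochberg over all genes tested. A gene was called at an adjusted p under 0.05. The SE of a log2 change is its size over the root of its F statistic. Levels within a gene and the sum over glycolytic enzymes are CPM with TMM scaling, and levels compared between genes are FPKM. Marker levels are CPM without TMM scaling. Every adjusted p printed is from this edgeR test unless another is named. The fit was tested on simulated data. Totals of 62513103 to 72530254 counts set the precision. Alternatives were DESeq2 1.42.0 (size factors, Wald test), upper-quartile scaling, no filter, limma 3.58.1 on log2(FPKM + 1) or log2(TPM + 1), where 1 is the pseudocount, only the libraries compared, a block for replicate numbers, and leaving out each library.

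The members and lists were chosen with earlier results of these data known. All 36 members are accounted for, and values in every library are given for members called with a change, or a difference between lines, of at least 1 log2 unit and for leaders of enzyme families. Other lists are given by up to 3 of their called genes at each end. Some genes of these lists are not reported here. Libraries with the same number did not vary together, so no block was used.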

Additional observations from a re-analysis of the deposited data

Results flagged for a closer look

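For 26 members the change differed between PC3 and DU145, tested as the change in PC3 minus the change in DU145 by edgeR's quasi-likelihood test over all genes. A negative value means that the log2 change was lower in PC3 than in DU145.

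The values below zero in glucose entry and upper glycolysis were -1.65 for SLC2A1, -0.963 for PFKL, -1.37 for PFKP, -1.81 for PFKFB3 and -1.14 for ALDOC. In lower glycolysis and lactate they were -0.252 for PGK1, -0.527 for PGAM1, -0.939 for ENO2 and -0.306 for SLC16A3. Among the factor subunits and hydroxylases they were -0.452 for HIF1A, -1.56 for EPAS1, -0.493 for ARNT and -0.556 for EGLN1. Among the other targets they were -1.1 for VEGFA and -0.412 for BNIP3L. HIF1A and EPAS1 rose in both lines, by less in PC3.

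The values above zero were 0.94 for HK2, 0.557 for GPI, 0.453 for PFKM, 0.237 for ALDOA and 0.204 for TPI1. In lower glycolysis they were 0.778 for GAPDH, 0.587 for ENO1, 0.136 for PKM and 0.154 for LDHA. ADM, at 0.612, and P4HA1, at 0.224, fell in both lines and by less in PC3. Of 19 alternatives, the call of P4HA1 was lost under 10, those of PKM and TPI1 under 5 each and that of ADM under 4. The calls of LDHA and PGK1 were lost under 2 each, and those of HIF1A and SLC16A3 under 1 each.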

How the results depend on the processing

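Of 29 members called in PC3, 25 kept their direction and call under every alternative, as did 23 of 28 in DU145 and 18 of 26 for the difference between lines. Of members that did not pass, 2 of 6 in PC3, 1 of 7 in DU145 and 1 of 9 for the difference stayed the same under every alternative. Those that changed included ARNT and BNIP3L in DU145 and ANKRD37 in PC3, each called lower under at least 1 alternative. Members called higher in PC3 numbered 8, and 4 under upper-quartile scaling, without the low-count filter and with limma on log2(FPKM + 1), and 4 to 8 when each library was left out. For the difference, 11 were higher, and 7 under upper-quartile scaling and with limma on log2(FPKM + 1), and 7 to 12 when each library was left out. In DU145 6 were higher, and 3 with limma on log2(TPM + 1). With at least 1 log2 unit required, 1 was higher and 10 lower in PC3, 1 and 4 in DU145, 0 and 6 for the difference, 8 and 4 between parental lines and 7 and 8 between resistant lines. On the TPM scale the median change of the 15332 genes tested was -0.149 in DU145 and 0.262 for the difference. With limma on log2(FPKM + 1) these medians were -0.0326 and 0.0339 for the same genes. Upper-quartile scaling moved the median of all genes between resistant lines to -0.118.

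Directions reversed only for values that had not passed. On the TPM scale these were PGAM1 in DU145 at -0.10, ALDOA in PC3 at 0.0481, LDHA in PC3 at 0.0590, and the differences of HK1 at 0.0584, BNIP3 at 0.0361 and P4HA2 at 0.0436. With limma on log2(FPKM + 1) they were the differences of PDK1 at -0.0172 and NDRG1 at -0.0378. When each library was left out, PGAM1 in DU145 ranged from -0.003025 to 0.07874, LDHA in PC3 from -0.03031 to 0.004532 and the difference of EGLN3 from -0.3702 to 0.6632. The cause was not tested. With counts in place of FPKM, the share of PFKP in PC3 differed by -7.47 points between resistant and parental cells, of ALDOC by -5.56 and of ENO2 by -9.04, of ENO2 in DU145 by -1.15, of EPAS1 in PC3 by 3.02 and of EPAS1 in DU145 by 13.1, against -8.47, -7.76, -10.7, -1.39, 2.17 and 9.82 with FPKM. Without length scaling longer transcripts weigh more.

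Libraries of the same number had deviations correlated at -0.102, 0.0368 and -0.0885 in PC3 and -0.0218, -0.000459 and -0.0107 in DU145, over 12202 genes, and no pairing is stated. With the replicate number as a block, 8 members were higher and 21 lower in PC3, 6 and 21 in DU145, and 10 and 16 for the difference. Of the resistant libraries, only the second of PC3 correlated best with the parental library of its own number. Depth limits CA9, which had at most 11 counts in a library. ANKRD37 had 26 to 339 counts in a library. EGLN3 had 8 to 119 in PC3 and 148 to 618 in DU145. The part of depth in the results of ANKRD37 and EGLN3 was not tested. SLC2A3 was represented by a retained-intron transcript alone, so its coding message was not measured.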
